A study of Mus musculus with 39 samples.

Results

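The comparison described here is that of 5-methylcytosine (5mC) in p53-null mouse embryonic stem cells (mESC) after retinoic acid (RA) with 5mC in the same kind of cells in the naive state. Its members are all 200 bp tiles of the genome with a 5mC value for p53-null cells in both states, 214665 of the 377684 tiles deposited (56.8%). No measured difference entered their choice. RA-treated p53-null cells gave 4 libraries of oxidative reduced representation bisulfite sequencing (oxRRBS) and naive p53-null cells gave 3. The corresponding WT cells, used for comparison, gave 4 RA-treated and 5 naive oxRRBS libraries.

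All lines were derived from E2.5 morulas of heterozygous p53+/- matings of the strain 129s-Trp53tm2Tyj/J, and their genotypes are labelled p53-/- and WT. Naive cells were kept in 2i medium with LIF and had been established on irradiated feeder fibroblasts. For differentiation the feeders were removed, and 1 uM RA was renewed each day for 4 days. The sources used here do not say whether feeders were also removed from naive cells before DNA was taken, how many lines each genotype stands for, or the sex of the lines. The tables hold methylation values only and do not check the loss of p53.

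Cytosine methylation at CpG sites is laid down by DNMT3A and DNMT3B and copied at replication by DNMT1, while TET enzymes oxidise 5mC to 5-hydroxymethylcytosine (5hmC) on the way to its removal. Naive mESC in 2i medium are known for low methylation, and exit from that state is accompanied by new methylation outside CpG islands. RRBS reads 5mC and 5hmC together, called total methylation below, from the CpG-rich fragments that the enzyme MspI releases. The oxidative form converts 5hmC first and so reads 5mC alone. p53, encoded by Trp53, is a transcription factor activated by stress.

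The authors pooled the libraries of a group into 1 value per tile, and neither read depth nor values per library were used. No value below therefore has a replicate error, no difference was tested against the spread between libraries, and an SD is that over tiles, windows or chromosomes. The values are averages over all alleles in a culture, so that a change in the share of cells carrying a pattern and a change within each cell cannot be told apart.

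The headings of the tile table give genotype and modification but no cell state, and its first and second sets of columns were taken as naive and RA-treated. This was checked against the table of single CpGs, whose headings name the state. Over 95601 tiles with CpGs in that table, the p53-null 5mC column taken as RA-treated lay nearest to the CpG column headed P53_RA_Hx. The mean absolute difference was 4.32 points and the next nearest of the 8 CpG columns, WT_RA_Hx, was at 6.81 points. The p53-null 5mC column taken as naive lay nearest to P53_NT_Hx, at 4.94 points, with the next at 7.13 points. All 8 mESC columns of the tile table were nearest to the CpG column of the genotype and state taken for them. The ending Hx is not defined in the sources used here. Those columns were nearest to 5mC and the columns ending in Tot to total methylation.

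Mean 5mC in p53-null cells was slightly higher after RA. It was 36.7% in RA-treated cells against 32.9% in naive cells, a difference of 3.75 percentage points over the 214665 tiles. The median difference was 1.59 points and the quartiles were -4.16 and 14.1 points. 5mC was higher after RA in 60.4% of tiles and lower in 37.0%. A small mean therefore stood beside changes in both directions in many tiles.

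A difference of 25 points or more was used to count changed tiles, since the deposited q-values compare genotypes and not states. By this limit 24213 tiles were higher in RA-treated p53-null cells (11.3% of tiles) and 12806 were lower (5.97%). With the limit raised to 50 points, 1995 tiles counted as higher and 1076 as lower. With a limit of 75 points, the counts were 60 and 41. Higher tiles outnumbered lower ones at each of these limits.

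In WT cells the same tiles shifted mostly one way. WT 5mC averaged 40.7% after RA against 23.7% in the naive state, 17.0 points higher, and 70031 tiles (32.6%) were higher by 25 points or more while 1847 (0.86%) were lower. The change in p53-null cells minus that in WT cells was -13.2 points. This difference of changes was not tested, because each group is a single pooled column.

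RA-treated p53-null cells had fewer tiles at both ends of the 5mC scale. Tiles at 80% or more made up 2.02% after RA against 5.82% in naive p53-null cells, and tiles under 5% made up 19.9% against 27.8%. Tiles from 20% up to 80% made up 68.2% against 53.7%. The SD of 5mC over tiles was 24.9 points after RA against 28.2 points in naive cells. The quartiles were 12.8% and 56.7% after RA, against 2.90% and 55.7% in naive cells, so the upper quartile was nearly level while the lower one was higher.

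The distribution in WT cells widened instead. Its SD was 27.2 points after RA against 22.4 points in the naive state, and tiles at 80% or more made up 5.08% against 1.27%. In total methylation of p53-null cells, read in RRBS libraries, the SD was 25.4 points after RA against 28.1 points in naive cells. The narrower spread after RA in p53-null cells was therefore present in both assays. Tiles listed at 100% 5mC numbered 44 after RA and 789 in naive p53-null cells, and tiles listed at 0% numbered 9334 after RA and 21416 in naive p53-null cells. In total methylation fewer tiles lay at these extremes. Those at 100% numbered 18 after RA and 122 in naive p53-null cells, and those at 0% numbered 7710 and 12342.

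**Figure D1:**
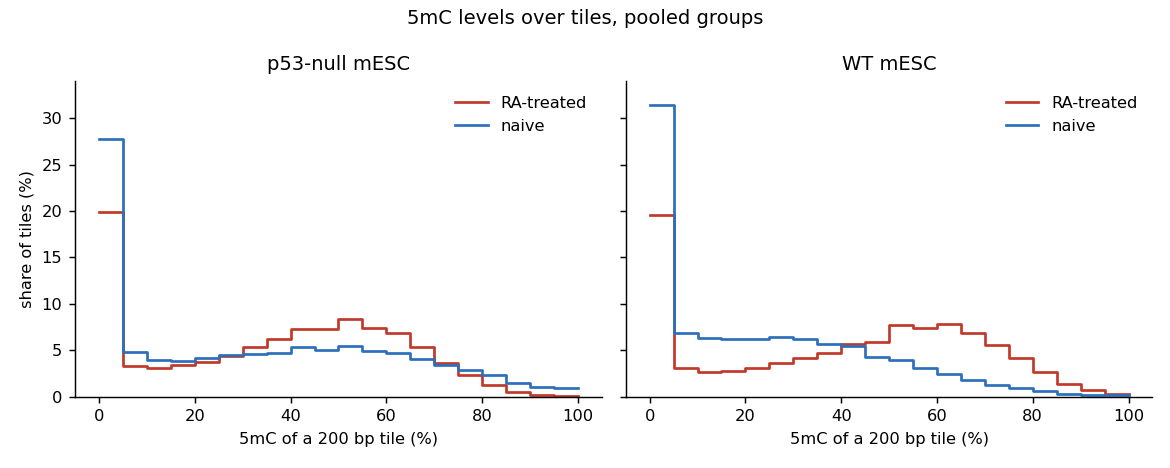
Share of tiles (y axis, %) by 5mC level in steps of 5 points (x axis, %) for RA-treated and naive cells, p53-null on the left and WT on the right, over 214665 tiles. In p53-null cells the RA curve lies lower than the naive curve at both ends, with 2.02% against 5.82% of tiles at 80% or more, while in WT cells it is shifted to higher levels.

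How far single tiles moved was followed by their naive class. Of the p53-null tiles at 80% or more in the naive state, 11.3% were at 80% or more after RA, 50.9% were at 60% to 80% and 30.8% at 40% to 60%. Of those under 5% in the naive state, 69.8% were under 5% after RA as well. The classes use the naive value of the comparison itself, so error in that value alone moves tiles out of the highest and lowest classes. In tiles at 80% or more, naive total methylation minus naive 5mC was -12.5 points, and 5hmC cannot be negative. For the following classes the level in naive WT cells was used instead, since it comes from other cells and other libraries.

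Grouped by naive WT 5mC, p53-null cells were higher after RA at low levels and lower at high levels. The 41650 tiles at 5% to 20% in naive WT cells averaged 36.5% in RA-treated and 25.8% in naive p53-null cells, which is 10.7 points higher after RA. Of these tiles 19.2% were higher by 25 points or more and 3.49% lower. Tiles at 20% to 40% averaged 49.3% after RA against 45.1% in naive p53-null cells, 4.26 points higher. Both classes hold sequence that is partly methylated in naive WT cells.

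Above 40% the direction was the opposite. The 36100 tiles at 40% to 60% in naive WT cells averaged 57.2% after RA against 58.9% in naive p53-null cells, a change of -1.79 points. At 60% to 80% the means were 63.2% and 69.3%, a difference of -6.09 points over 13906 tiles. In the 2725 tiles at 80% or more they were 67.0% after RA and 74.8% in naive p53-null cells, -7.81 points, with 19.3% of tiles lower by 25 points or more and 7.16% higher. RA-treated p53-null cells thus had the smaller range across these classes. Grouped by RA-treated WT 5mC instead, the p53-null 5mC change was positive in every class. It was 0.513 points under 5%, 6.42 points at 20% to 40% and 3.10 points at 80% or more. Total methylation changed by -0.641 points in that highest class. From the lowest to the highest class by RA-treated WT 5mC, p53-null 5mC went from 1.33% to 66.9% after RA. In naive p53-null cells it went from 0.816% to 63.8%. The sign at high levels, and which state had the smaller range, therefore depended on which WT column set the classes.

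Total methylation of p53-null cells followed the same order. It was 7.46 points higher after RA in tiles at 5% to 20% in naive WT cells, 0.918 points higher at 20% to 40%, and then -4.38, -7.85 and -9.20 points in the 3 classes above. In the 67519 tiles under 5% in naive WT cells, 5mC was 9.35% after RA against 4.80% in naive p53-null cells and the median difference was 0.487 points. Of these tiles 6.02% were higher by 25 points or more and 0.804% were lower.

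**Figure D2:**
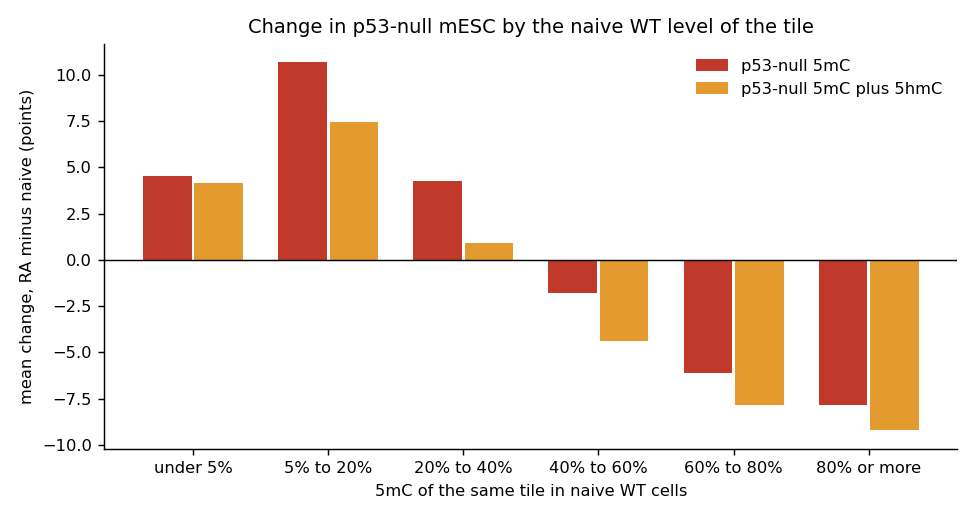
Mean change in p53-null cells, RA minus naive (y axis, percentage points), of 5mC and of 5mC plus 5hmC, for tiles grouped by their 5mC in naive WT cells (x axis). The bars are means over tiles with no error, and 5mC goes from 10.7 points at 5% to 20% to -7.81 points at 80% or more.

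5hmC, taken as total methylation minus 5mC, was lower after RA in p53-null cells. It averaged 2.80% in RA-treated cells against 4.94% in naive cells, a difference of -2.14 points. Total methylation was 39.5% after RA against 37.9% in naive p53-null cells, 1.61 points higher. By 25 points or more it was higher in 9523 tiles (4.44%) and lower in 7187 (3.35%). In WT cells total methylation was higher in 43579 tiles (20.3%) and lower in 579 (0.27%). The corresponding 5hmC difference in WT cells was -3.82 points. Where naive WT 5mC was 20% to 40%, p53-null 5hmC was 3.68% after RA against 7.02% in naive cells. Where it was under 5%, the values were 1.43% and 1.84%. Single tiles give poor estimates of 5hmC: 7.24% of tiles had -10 points or less after RA and 9.93% in naive p53-null cells.

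Total methylation, read by the other assay, was compared in the tiles counted by 5mC. Of the 24213 tiles higher in 5mC after RA, 79.5% were also higher in total methylation, against 57.0% of all tiles, and 18.5% by 25 points or more, against 4.44% of all tiles. Their total methylation averaged 53.9% after RA against 42.1% in naive p53-null cells, while their 5mC averaged 55.7% against 20.3%. Of the 12806 tiles lower in 5mC, 77.4% were lower in total methylation too, against 41.1% of all tiles. These had 51.9% total methylation after RA against 63.1% in naive p53-null cells, and 40.9% against 76.3% in 5mC. Their naive 5mC, which helped choose them, was thus higher than their naive total methylation, although 5hmC cannot be negative. Total methylation changed by 11.8 points in the higher tiles and -11.2 points in the lower ones. The 5mC changes that chose them were 35.4 and -35.5 points. Per the labels' protocols, adapter-ligated libraries were pooled and then went into the bisulfite or the oxidative treatment, so the assays are not shown to come from separate cultures. Across all tiles the 5mC and total changes had Pearson's r = 0.465, and over 2466 windows of 1 Mb r = 0.892.

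Of the 24213 tiles higher after RA in p53-null cells, 65.5% were higher by 25 points or more in WT cells, against 32.6% of all tiles, and they made up 22.6% of the 70031 higher tiles of WT cells. In these tiles WT 5mC averaged 54.4% after RA against 23.4% in the naive state. Of the 12806 lower tiles, 512 (3.998%) were lower by 25 points or more in WT cells, against 0.86% of all tiles, and these were 27.7% of the 1847 lower tiles of WT cells. A further 25.8% of the 12806 were higher by as much in WT cells, fewer than the 32.6% of all tiles. The WT means in the lower tiles were 54.1% after RA and 42.1% in the naive state. In these tiles the level in RA-treated p53-null cells, 40.9%, was nearer to that in naive WT cells than the level in naive p53-null cells, 76.3%. They were chosen by those p53-null values, so this order is a description.

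The mean change differed with the number of CpGs listed per tile and with distance from CpG-dense tiles. Tiles with 9 or more CpGs in the single-CpG table, which mark the cores of CpG-dense sequence, averaged 0.346% 5mC after RA against 0.317% in naive p53-null cells, over 6254 tiles, and 1 of them was higher by 25 points. Within 2000 bp of such a tile, 5mC was 4.91% after RA against 3.54% in naive cells. At 2000 to 10000 bp it was 35.8% against 27.7%, 8.07 points higher. The mean change was thus smallest in the dense cores, where 5mC was also lowest in both states. In WT cells the dense cores changed by 0.0644 points. Most near-flank tiles were under 5% in naive WT cells, and the 1052 that were at 5% to 20% there had 22.6% 5mC after RA against 15.5% in naive p53-null cells.

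Far from dense sequence, higher and lower tiles were nearly balanced. More than 100000 bp from a dense tile lay 107523 tiles, with 41.7% 5mC after RA against 40.2% in naive p53-null cells, 1.51 points higher. There 10.4% of tiles were higher by 25 points or more and 8.96% were lower. At 10000 to 100000 bp the shares were 15.2% and 3.77% and the difference was 7.23 points. In WT cells the far tiles were 17.6 points higher after RA and those at 10000 to 100000 bp 20.2 points higher.

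The dependence on distance was also seen within a methylation class. Among tiles at 40% to 60% in naive WT cells, p53-null 5mC beyond 100000 bp was 55.3% after RA against 59.9% in naive cells, -4.62 points over 22894 tiles. At 10000 to 100000 bp it was 60.5% against 57.4%, 3.11 points over 11667 tiles. In the other classes the change had the same sign at both distances. It was 6.44 points at 10000 to 100000 bp and 6.18 points beyond in tiles under 5%, 13.1 and 8.81 points at 5% to 20%, and 8.13 and 1.39 points at 20% to 40%. At 60% to 80% it was -1.75 and -8.46 points, and at 80% or more -3.47 and -9.80 points. The CpGs counted per tile are those listed in the authors' single-CpG table and not all CpGs of the sequence.

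Along the chromosomes, 1672 of 2466 windows of 1 Mb with at least 20 tiles had higher mean 5mC in RA-treated than in naive p53-null cells (67.8%) and 794 had lower mean 5mC. In WT cells 2462 of the windows were higher after RA and 4 lower. The median window change in p53-null cells was 3.10 points and the range was -23.6 to 14.5 points. Of the 794 lower windows, 736 (92.7%) were also lower in total methylation, against 42.3% of all windows. WT cells were higher in 790 of the 794, which is near the 99.8% of all windows.

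Lower windows were most frequent among windows with few tiles, in which the assay read few places. In the 843 windows with 20 to under 50 tiles, 60.4% were lower after RA, with 39.8% 5mC against 41.6% in naive p53-null cells. In the 871 windows with 50 to under 100 tiles 29.3% were lower, and in the 602 with 100 to under 200 tiles 4.82%. Of the 150 windows with 200 tiles or more, 1 was lower, and 5mC was 32.4% after RA against 25.9% in naive p53-null cells, 6.53 points higher. Leaving out chromosome X gave 61.7% lower windows in the sparsest group. In WT cells the sparsest group was at 45.1% after RA against 30.1% in the naive state, and the densest group was 17.6 points higher after RA. The SD of the change over windows was 5.71, 5.65, 3.21 and 2.06 points in the 4 groups, sparsest first.

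**Figure D3:**
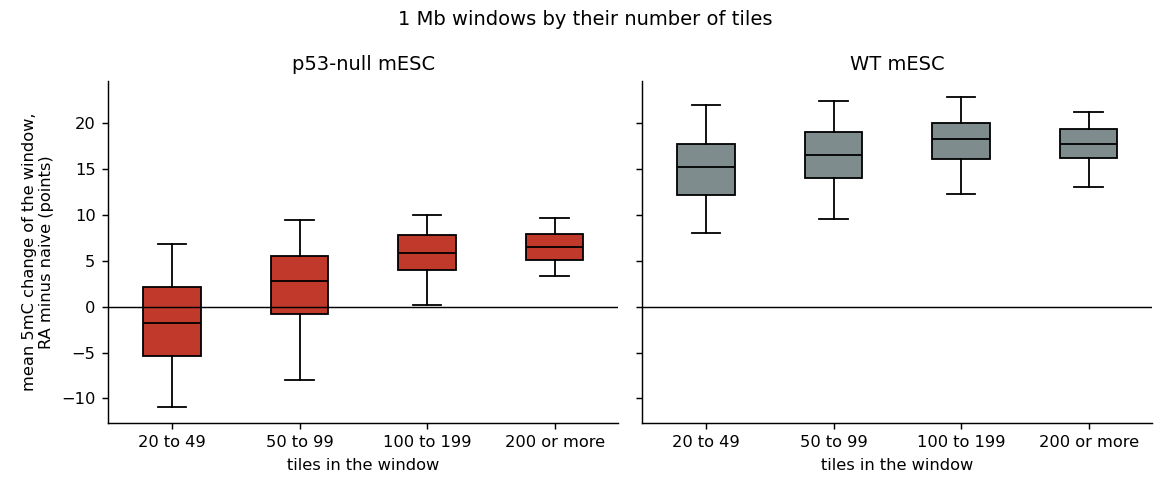
Mean 5mC change of 1 Mb windows, RA minus naive (y axis, percentage points), by the number of tiles in the window (x axis), for p53-null cells on the left and WT cells on the right. Boxes give quartiles and median over windows and whiskers the 5th and 95th percentiles; in p53-null cells 60.4% of the sparsest windows and 1 of 150 of the densest lie lower than 0, while WT boxes lie higher than 0 throughout.

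By chromosome, 5mC was higher after RA on 19 of the 20 chromosomes with at least 1000 tiles. The autosomal differences ran from 2.18 points on chromosome 12 to 5.26 points on chromosome 2, where 5mC was 35.8% after RA against 30.6% in naive p53-null cells. Chromosome 11, which carries the Trp53 gene, was at 34.3% against 29.7%, 4.61 points higher. In WT cells the autosomal differences were 15.6 to 17.9 points. All 19 autosomes were higher in total methylation of p53-null cells as well, by 0.202 to 3.13 points.

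Chromosome X was lower after RA in p53-null cells. Its 4296 tiles averaged 36.7% in RA-treated against 38.9% in naive p53-null cells. The change was -2.18 points in 5mC and -4.07 points in total methylation. Tiles lower by 25 points or more made up 12.9% on X, and higher ones 7.38%. WT cells were 12.0 points higher after RA on X, which is also less than on any autosome. At 40% to 60% in naive WT cells, p53-null 5mC on X was 52.4% after RA against 63.0% in naive cells, -10.6 points, where the autosomes differed by -1.55 points. Cell state cannot be told apart here from the sex and number of the lines that went into each pool.

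The sign of the X difference varied between kinds of tiles. X tiles under 5% and at 5% to 20% in naive WT cells were 4.34 and 5.55 points higher after RA in p53-null cells. In the classes from 20% to 40% upward the changes were -3.54, -10.6, -9.92 and -9.43 points. X tiles with CpGs in the single-CpG table were 2.93 points higher after RA, at 20.90% against 17.97% in naive p53-null cells. The other 3034 tiles, 70.6% of those on X, were lower, at 43.3% against 47.6%. On autosomes both kinds were higher, by 6.07 and 2.08 points. Over the 4946 single CpGs of X in the columns ending in Hx, the value was 10.2% after RA against 7.11% in naive p53-null cells.

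**Figure D4:**
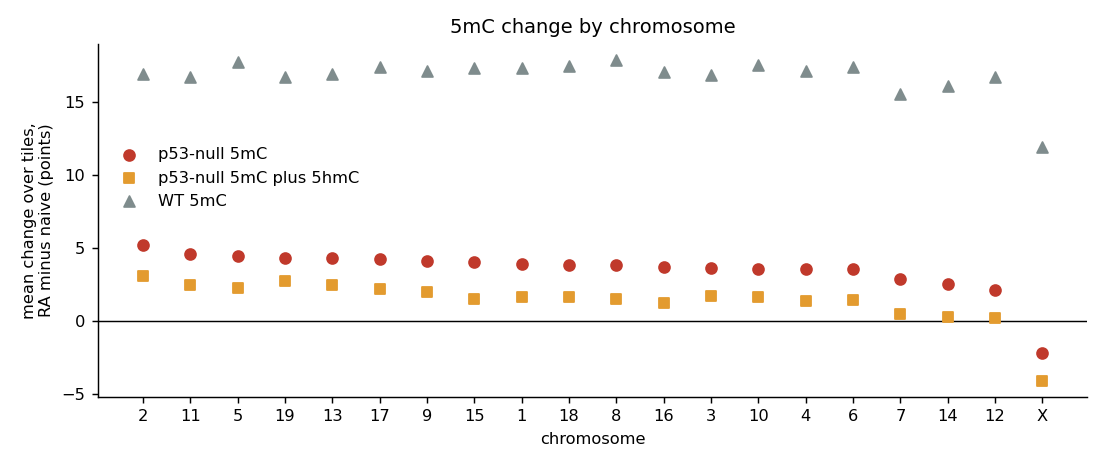
Mean change over tiles, RA minus naive (y axis, percentage points), of p53-null 5mC, p53-null 5mC plus 5hmC and WT 5mC on each chromosome with at least 1000 tiles, ordered by the first. Chromosome X stands apart at -2.18 points in p53-null 5mC and 12.0 points in WT 5mC.

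The 3 windows of lowest change lay on chromosomes X and 7. The window X 52000001 to 53000000 (coordinates on mm9, here and below) was at 38.3% after RA against 62.0% in naive p53-null cells, -23.6 points over 21 tiles, and -23.8 points in total methylation. The window X 28000001 to 29000000 was at 49.8% against 72.5% over 59 tiles. On chromosome 7, the window 22000001 to 23000000 was at 33.9% after RA against 56.5% in naive p53-null cells over 76 tiles, while WT cells were at 38.5% after RA and 33.4% in the naive state. Of the 20 lowest windows 8 lay on X and 7 on chromosome 7, which hold 102 and 141 of the 2466 windows. All 20 were at -16.6 points or less.

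Some lower windows lay side by side in stretches. The longest covered 11 neighbouring windows of X, 23000001 to 34000000, with a mean of 47.7% after RA against 63.7% in naive p53-null cells. Each of the 11 was lower in 5mC, by between -22.6 and -6.10 points, and each was lower in total methylation. WT cells were 2.37 points higher there after RA. On chromosome 8 a stretch of 8 windows, 99000001 to 107000000, averaged 36.3% after RA against 45.2% in naive p53-null cells, with WT 13.2 points higher after RA. A stretch of 6 windows at 3000001 to 9000000 of chromosome 14 averaged 31.2% against 42.4%. Of 458 stretches of lower windows, lone windows included, 77 held 3 or more windows. These held 305 of the 794 lower windows. With 32.2% of all windows lower, some neighbours are lower without any clustering, and clustering was not tested.

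The windows of largest gain were spread over more chromosomes. The window 77000001 to 78000000 of chromosome 14 was at 47.4% after RA against 32.9% in naive p53-null cells, 14.5 points higher over 91 tiles. On chromosome 6 the window 93000001 to 94000000 was at 46.1% against 31.8%, and on chromosome 2 the window 62000001 to 63000000 at 39.4% against 25.5%. WT cells were 22.4, 25.1 and 22.2 points higher after RA in these 3 windows. The 20 highest windows lay on 9 chromosomes. Of these windows 8 lay on chromosome 2, which holds 172 windows, and 2 on X. The longest stretch of higher windows covered 21 windows of chromosome 9, 52000001 to 73000000, at 35.6% after RA against 29.8% in naive p53-null cells.

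Nearby tiles changed together. Across pairs of tiles 200 bp apart, Pearson's r of the p53-null 5mC change was 0.448 over 90044 pairs. It was 0.273 at 1000 bp, 0.0967 at 10000 bp and 0.0418 at 100000 bp. Pairs of adjacent tiles can share reads and CpGs of the same fragment. Runs of at least 3 tiles, starting at most 1000 bp apart and each changed by 25 points or more the same way, were therefore used to name regions.

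There were 258 runs higher and 44 runs lower after RA in p53-null cells. The higher runs lay on 20 chromosomes and averaged 51.97% after RA against 15.6% in naive p53-null cells. All 258 were higher in WT cells too, 216 of them by 25 points or more. Of all single tiles, 81.4% were higher in WT cells, and 32.6% by 25 points or more. The WT means of the runs were 51.8% after RA and 16.8% in the naive state. In total methylation 247 of the 258 were higher after RA, where 57.0% of all single tiles were.

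The 44 lower runs averaged 45.8% after RA against 81.9% in naive p53-null cells. In WT cells these runs averaged 56.9% after RA and 53.2% in the naive state. WT was lower after RA in 18 of them, in 1 by 25 points or more. Of all single tiles, 15.3% were lower in WT cells, and 0.86% by 25 points or more. In total methylation 43 of the 44 were lower after RA, where 41.1% of all single tiles were. Their mean total methylation was 53.5% after RA against 74.6% in naive p53-null cells. Naive p53-null cells were thus the group with the highest level in the lower runs, which is also the value that chose them.

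The run of largest increase was on chromosome 15 at 52998001 to 52998600. Its 3 tiles had 35.5%, 64.5% and 76.1% 5mC in RA-treated cells, against 3.03%, 6.17% and 2.94% in naive p53-null cells. Total methylation averaged 66.3% after RA and 27.1% in naive p53-null cells. WT cells had 57.6% 5mC after RA and 4.17% in the naive state. WT total methylation was 58.8% after RA and 6.72% in the naive state. Naive p53-null and naive WT cells were thus near each other in 5mC but not in total methylation. The naive p53-null 5mC value helped choose the run, so this is a description only.

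The next was on chromosome 13 at 24788601 to 24790000. Its 4 tiles had 61.3%, 66.7%, 59.3% and 45.5% 5mC after RA, against 2.22%, 0%, 5.88% and 11.8% in naive p53-null cells. The 2 single CpGs measured within it averaged 52% after RA and 1.5% in naive p53-null cells in the columns ending in Hx. A run of 4 tiles on chromosome 6 at 97902201 to 97903000 was at 62.0% after RA against 11.6% in naive p53-null cells, with total methylation at 57.5% against 15.9%.

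In the other runs among the 10 of largest increase the change was 47.9 to 51.7 points. Total methylation was higher after RA in all 10, by 0.761 to 41.5 points. The smallest of these was on chromosome 13 at 44548601 to 44549400, where 5mC was 68.5% after RA against 16.7% in naive p53-null cells but total methylation 63.1% against 62.3%. Single CpGs were measured in 8 of the 10 runs and were higher after RA in all 8. Their columns were taken as the same pooled oxRRBS groups that chose the runs, so this is not an independent check.

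The run of largest decrease was on chromosome 7 at 16161401 to 16162400. Its 4 tiles had 47.1%, 25.2%, 36.7% and 20.3% 5mC after RA, against 88.1%, 78.9%, 82.1% and 83.3% in naive p53-null cells. Total methylation averaged 42.3% after RA and 75.4% in naive p53-null cells, and the WT 5mC change in the run was -7.57 points. Another run on chromosome 7, at 16003601 to 16004400, was at 33.8% after RA against 78.0% in naive p53-null cells, with WT at 31.7% after RA and 35.6% in the naive state.

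On chromosome 4 the run at 88304401 to 88305400 had 4 tiles with 42.9%, 45.8%, 52.7% and 43.3% after RA, against 86.0%, 94.5%, 100% and 82.5% in naive p53-null cells. A further run on chromosome 7, at 54875601 to 54876200, was at 48.4% after RA against 90.2% in naive p53-null cells, and at 46.7% against 91.0% in total methylation. On X the run 105843801 to 105844400 was at 34.2% against 77.1%, and 52106401 to 52107600 at 28.9% against 71.8%. The run at 52106401 lies in the window of largest decrease. All 10 runs of largest decrease lay on 5 chromosomes and were lower in total methylation, by between -44.3 and -2.97 points.

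**Figure D5:**
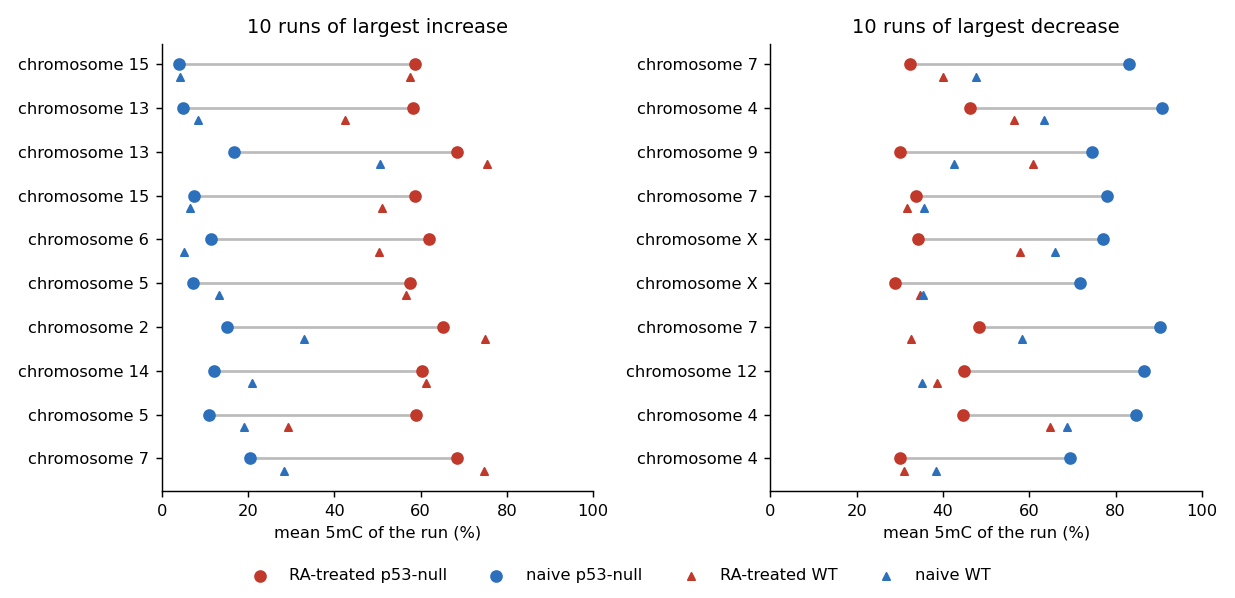
Mean 5mC (x axis, %) of the 10 runs of largest increase on the left and the 10 of largest decrease on the right, in order of size from the top, for RA-treated and naive p53-null cells (circles) and RA-treated and naive WT cells (triangles). The runs were chosen by the distance between the circles; the naive p53-null circle is the point farthest to the right in each of the lower runs.

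The largest changes of single tiles were often not matched by total methylation. On chromosome 6 the tile 144325001 to 144325200 was at 96.7% 5mC after RA against 0% in naive p53-null cells, while its total methylation was 80.5% against 69.7%. The tile 141027401 to 141027600 of chromosome 4 was at 96.3% against 0% in 5mC and at 61.3% against 51.4% in total methylation. Of the decreases, the tile 96480601 to 96480800 of chromosome 4 was at 0% 5mC after RA against 97.0% in naive p53-null cells, but its total methylation was 18.3 points higher after RA. Total methylation of the tile 76820001 to 76820200 of chromosome 9 moved with its 5mC, which was 11.8% after RA against 100% in naive p53-null cells, with 27.8% against 65.7% in total methylation.

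In the single-CpG table, whose state is named in the headings, the p53-null columns ending in Hx averaged 11.1% after RA against 7.15% in naive cells over 330387 CpGs, a difference of 3.96 points. The mean was higher after RA on each of the 20 chromosomes that hold 1000 of these CpGs or more. A change of 25 points or more upward was seen in 24447 CpGs (7.4%), and one downward in 2263 (0.685%). CpGs listed at 0 made up 65.7% after RA against 75.2% in naive p53-null cells. Lower sites were thus a smaller share of these CpGs than of the tiles. Over the 95601 tiles that hold such CpGs, the changes in the tables had r = 0.784. The 119064 tiles without them averaged 46.5% after RA against 44.5% in naive p53-null cells, and they held 11513 of the 12806 lower tiles.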

How the data were processed

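Genomic DNA was cut with MspI, ligated to adapters and treated with bisulfite alone (RRBS) or after oxidation with a commercial kit (oxRRBS), per the labels' protocols. Trim Galore, BSMAP and methylKit and the build mm9 are named in the submitters' processing notes. The sources used here do not give versions, coverage filters or the way of pooling. Per 200 bp tile, the authors deposited a fraction for each genotype and assay in 2 sets of columns that name no state, and these were converted to percent. The single-CpG table holds whole percent values deposited by the authors. Of the tile table, 4 columns whose headings match no sample were not used.

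Differences are RA-treated minus naive in percentage points, each tile counting once. Depth is unknown, so no interval or floor is given, and with 1 pooled column per group no test was run. The count model, or limma on fractions, foreseen for values per library could not be used. Tiles were classed at 5, 20, 40, 60 and 80%. Named regions are the 10 runs, 5 tiles and 3 windows of largest change each way and the chromosomes of highest and lowest change, of which those that show the pattern are given in full. The naming of chromosome 11, of the stretches of windows and of single CpGs was chosen after values were seen. Members, limits and classes were chosen with earlier results of these data known. No gene was assigned to a position and no sequence is shown, since the gene tables used here are on GRCm38.p6 and the files on mm9. The counting steps were tested on simulated data. Python 3.11.15, numpy 2.4.6, pandas 2.3.3 and matplotlib 3.10.9 were used. Alternatives concerned chromosomes, tiles, limits, window size, run length and assay.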

Additional observations from a re-analysis of the deposited data

Results flagged for a closer look

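On chromosome X the mean 5mC change of p53-null cells was -2.18 points, RA minus naive, while that of WT cells was 12.0 points. It is listed because the genotypes moved in opposite directions in the mean over all X tiles. In the X tiles with CpGs in the single-CpG table both were higher after RA, p53-null by 2.93 points and WT by 10.1 points. Likewise 790 windows of 1 Mb were lower after RA in p53-null cells and higher in WT cells, where 99.8% of all windows were higher. Both differences between genotypes were not tested, since each group has 1 pooled value.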

How the results depend on the processing

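Of 36 alternatives, 20 left a mean within 1 SD over chromosomes or a count or share within 1.5 times, and 16 moved it further. This tally does not measure robustness, because some outcomes were fixed beforehand. The alternative of tiles with every mESC level kept the same 214665 tiles and could not differ. The share of higher windows, 67.8%, could not rise by 1.5 times. Other limits and run lengths can shift a count only in a known direction. With total methylation in place of 5mC the mean change in p53-null cells was 1.61 points, the tiles changed by 25 points numbered 9523 higher (4.44%) and 7187 lower (3.35%), and the p53-null change minus the WT change was -11.6 points. With 1 tile per 1000 bp, which leaves 119615 of the 214665 tiles, the counts were 14479 and 8456 and that difference was -14.8 points. The counts over all tiles were 24213 and 12806, and a smaller set of tiles can only lower them. Without tiles at 0% or 100% it was -15.5 points. A limit of 10 points gave 68694 higher and 38568 lower tiles, and one of 50 points 1995 and 1076. Runs of at least 2 tiles numbered 3241 higher and 986 lower, and runs of at least 4 tiles 24 and 5. Windows of 100000 bp, of which only dense ones hold 20 tiles, were higher in 91.5%. The single CpGs, the tiles backed by total methylation (19246 higher and 9918 lower) and the windows without X were alternatives chosen after seeing the data.

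Tiles with all 8 mESC levels were the same 214665 tiles. No paired analysis was possible because each group has a lone pooled column, and for the same reason no replicate was left out. Depth is unknown, so the precision of single tiles cannot be given.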

Other observations

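Tiles with a p53-null 5mC value in a single state enter no comparison. The 37349 tiles with a value only after RA averaged 34.99%, and the 31757 with a value only in the naive state averaged 38.6%.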
